A study of Mus musculus with 18 samples.

Results

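The microglia genes of the mouse cerebellum described here are the receptors *Cx3cr1*, *Csf1r*, *P2ry12* and *Trem2*, the surface protein gene *Tmem119*, *Aif1*, *Cd68* and the complement subunit genes *C1qa*, *C1qb* and *C1qc*. They were listed by symbol and are 10 of the 54752 genes with RNA values and 10 of the 22523 genes with footprint values. All 10 passed the filters on low counts in each comparison, so none was left out.

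Microglia are the resident macrophages of the brain, and their survival depends on signaling through the receptor encoded by *Csf1r*, whose ligands are the products of *Csf1* and *Il34*. In healthy tissue they survey their surroundings with fine processes, a state in which the fractalkine receptor gene *Cx3cr1*, the purinergic receptor gene *P2ry12* and *Tmem119* are highly expressed. Where neurons degenerate, microglia turn to phagocytosis and express more of the lipid-sensing receptor *Trem2*, the lysosomal glycoprotein *Cd68* and the actin-bundling protein *Aif1* (also called Iba1), and they are the main source in brain of C1q, which starts the classical complement pathway.

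RNA sequencing of poly(A) RNA and ribosome profiling, which sequences the mRNA fragments that ribosomes protect from nuclease (footprints), were performed on cerebella of mice at 3 weeks of age, with 3 mice for each of 3 genotypes in each assay and 1 cerebellum for each library. The genotypes were B6J, B6J.*Gtpbp1*-/- (part of the gene replaced by a selection cassette, made congenic on C57BL/6J by backcrossing) and B6J-*Gtpbp2*-/- (the nmf205 point mutation, a null allele from chemical mutagenesis), and mice of both sexes were used. *Gtpbp1* and *Gtpbp2* encode GTPases that act on paused ribosomes, and all groups, controls included, carried the C57BL/6J mutation of the arginine tRNA gene *n-Tr20*, which reads AGA codons. The labels place all RNA libraries in batch 1 and all footprint libraries in batch 2, so assay and batch cannot be told apart. The comparisons ask whether loss of either GTPase was accompanied by other levels of these genes, and both mutants were compared with the same 3 B6J libraries of an assay. RNA libraries held between 37794598 and 52114400 estimated counts, and footprint libraries between 3630823 and 10442573 counts. No pair of replicates was the same library, since the lowest chi-square per gene between them was 10.6. Levels are given as counts scaled by TMM to a common library total (CPM), and changes as log2 fold changes, with called genes being those at an edgeR adjusted p of at most 0.05 over all genes tested.

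The targeted genes were examined first. *Gtpbp1* RNA was at 70.7, 77.6 and 66.5 CPM in B6J, 44.2, 41.7 and 43.8 CPM in B6J.*Gtpbp1*-/- and 58.8, 72.3 and 65.8 CPM in B6J-*Gtpbp2*-/- libraries. The B6J.*Gtpbp1*-/- libraries lay below all others, with a log2 fold change of -0.73 ± 0.08 (SE) (edgeR adjusted p = 5.94e-05). This call was lost with an offset for transcript length (edgeR adjusted p = 0.0819). In TPM (a level per transcript length) the groups overlapped, at 43.5, 38.4 and 40.4 in B6J and 34.5, 35.1 and 41.1 in B6J.*Gtpbp1*-/- libraries. In footprints the log2 fold change was -1.57 ± 0.23 (SE) (edgeR adjusted p = 0.00676). *Gtpbp2*, whose allele is a point mutation, was at 85.6, 73.8 and 87.8 CPM in B6J, 109, 101 and 104 CPM in B6J.*Gtpbp1*-/- and 65.6, 75.5 and 72.9 CPM in B6J-*Gtpbp2*-/- libraries in RNA. Relative to B6J, its log2 fold change was -0.22 ± 0.09 (SE) in B6J-*Gtpbp2*-/- mice (edgeR adjusted p = 0.190), with overlap of the groups, and 0.34 ± 0.08 (SE) in B6J.*Gtpbp1*-/- mice (edgeR adjusted p = 0.0154). The second call was lost without B6J.*Gtpbp1*-/- replicate 1 (edgeR adjusted p = 0.0647) or B6J replicate 2 (edgeR adjusted p = 0.0660). The change in B6J-*Gtpbp2*-/- mice depended on how transcripts were treated and was 0.32 with the offset for transcript length (edgeR adjusted p = 0.122) and -0.61 on protein-coding transcripts alone (edgeR adjusted p = 0.00967). *Gtpbp2* footprints were at 44.9, 36.00 and 38.8 CPM in B6J, 35.9, 43.1 and 59.2 CPM in B6J.*Gtpbp1*-/- and 28.9, 26.2 and 7.51 CPM in B6J-*Gtpbp2*-/- libraries, and although all 3 B6J-*Gtpbp2*-/- libraries were below all 3 B6J libraries, the test was not passed (edgeR adjusted p = 0.321, with -0.97 as log2 fold change). The Y-linked gene *Ddx3y* was at 0, 100.4 and 0.515 CPM in B6J, 119.8, 128 and 0.548 CPM in B6J.*Gtpbp1*-/- and 0.449, 0.249 and 0.225 CPM in B6J-*Gtpbp2*-/- libraries in RNA, so libraries with it made up 1 of the 3 B6J, 2 of the 3 B6J.*Gtpbp1*-/- and 0 of the 3 B6J-*Gtpbp2*-/- RNA libraries. Its footprints were at 85.1, 72.4 and 0.481 CPM in B6J, 119, 2.86 and 0.678 CPM in B6J.*Gtpbp1*-/- and 2.50, 1.09 and 1.06 CPM in B6J-*Gtpbp2*-/- libraries, so libraries of the same number in the 2 assays did not all come from the same mouse. Without B6J replicate 2, the comparison of B6J-*Gtpbp2*-/- and B6J RNA held only libraries low in *Ddx3y*, and 7 members were called, the same number as with it. In footprints B6J replicates 1 and 2 were both high in *Ddx3y*, so no fit without 1 library held only low libraries. The part of this difference in the footprint results was not tested.

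Certain libraries stood apart for the microglia genes as a whole. Among RNA libraries of its genotype, B6J.*Gtpbp1*-/- replicate 1 was the highest for 10 of the 10 genes. In footprints, B6J.*Gtpbp1*-/- replicate 2 was the lowest of its genotype for 10 of the 10 genes, and B6J-*Gtpbp2*-/- replicate 3 was the highest of its genotype for 9 of the 10. The genes share these libraries and are not replicates of each other, so the number of genes that moved does not add to the number of mice.

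In RNA, most of the microglia genes were higher in both mutants than in B6J mice. Of the 10 genes, 8 rose in B6J.*Gtpbp1*-/- mice, where 5.90% of the 24577 genes tested rose. The number was 7 in B6J-*Gtpbp2*-/- mice, where 3.61% of 24859 rose. None fell in either. For 8 of the 10 genes every B6J.*Gtpbp1*-/- library was above every B6J library, against 16.1% of all genes tested, and for 8 of 10 every B6J-*Gtpbp2*-/- library was, against 14.5%. The median log2 fold change of the 10 genes was 1.29 in B6J.*Gtpbp1*-/- mice, against 1.11 for B6J-*Gtpbp2*-/- mice, where the medians of all genes tested were 0.03 and 0.03. All 10 fold changes were positive in both comparisons with TMM, with DESeq2's size factors and with upper quartile normalization. DESeq2 called 8 and 7 of the genes, against 4284 of 24577 and 3409 of 24859 genes in all, of which 1828 and 1487 were higher. In a bulk library, more microglia and more of each RNA per microglial cell cannot be told apart. Over all genes, 1449 rose and 1949 fell in B6J.*Gtpbp1*-/- mice, and 898 rose and 1248 fell in B6J-*Gtpbp2*-/- mice. With upper quartile normalization the numbers were 1837 and 1512, and 1074 and 941. The number that rose in B6J.*Gtpbp1*-/- mice was 726 without B6J.*Gtpbp1*-/- replicate 2, 951 without B6J.*Gtpbp1*-/- replicate 3 and 955 without B6J replicate 1. The number that rose in B6J-*Gtpbp2*-/- mice was 587 without B6J-*Gtpbp2*-/- replicate 2, 380 without B6J-*Gtpbp2*-/- replicate 3, 410 without B6J replicate 1 and 487 without B6J replicate 2. The number of called microglia genes was 7 or more in each of these fits.

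**Figure D1:**
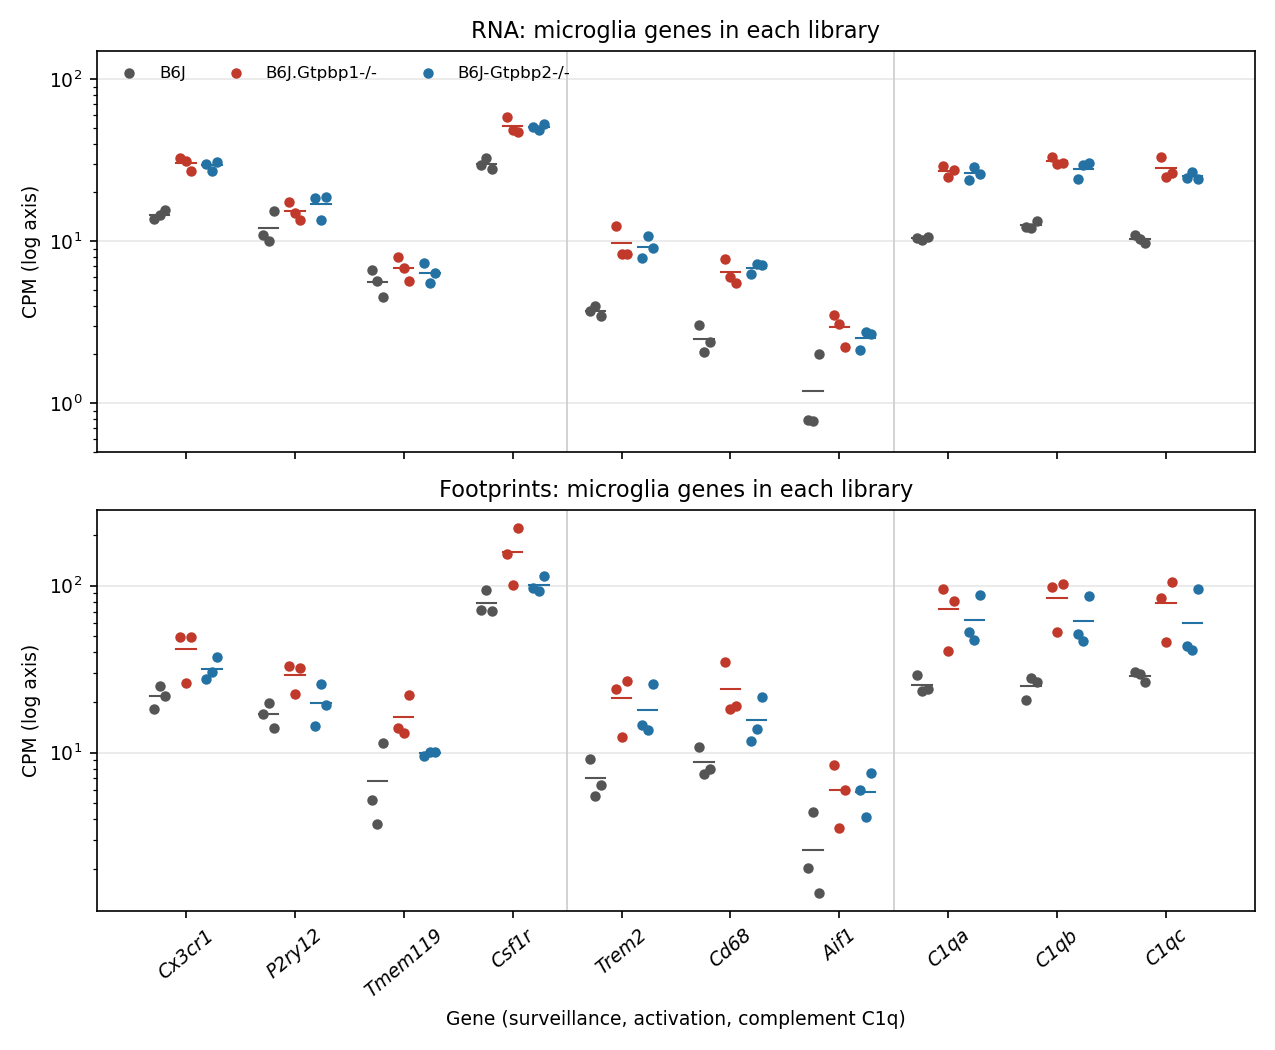
Level of each of the 10 microglia genes in RNA (top) and in footprints (bottom), in CPM on a log axis, with 1 dot for each of the 3 libraries of a genotype, a short line at their mean and vertical lines between the surveillance, activation and C1q genes. For *C1qa* RNA, the B6J libraries lie between 10.2 and 10.7 CPM and the 6 mutant libraries between 23.9 and 29.2 CPM, while the groups overlap for *P2ry12* and *Tmem119* RNA.

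Among the surveillance genes, *Cx3cr1*, which encodes the receptor for the neuronal chemokine fractalkine, and *Csf1r*, which encodes the receptor that microglia need to survive, were higher in both mutants, while *P2ry12* and *Tmem119* did not pass the test. *Cx3cr1* RNA was at 13.6, 14.5 and 15.6 CPM in B6J, 32.8, 31.2 and 27.04 CPM in B6J.*Gtpbp1*-/- and 30.2, 27.3 and 30.7 CPM in B6J-*Gtpbp2*-/- libraries. All 6 mutant libraries were above all 3 B6J libraries. For *Cx3cr1* the log2 fold change was 1.05 ± 0.11 (SE) in B6J.*Gtpbp1*-/- mice (edgeR adjusted p = 3.57e-05) and 1.00 ± 0.11 (SE) in B6J-*Gtpbp2*-/- mice (edgeR adjusted p = 0.000300). *Csf1r* RNA was at 29.5, 32.5 and 27.8 CPM in B6J, 58.3, 48.7 and 47.04 CPM in B6J.*Gtpbp1*-/- and 50.8, 48.6 and 52.8 CPM in B6J-*Gtpbp2*-/- libraries. Again the groups did not overlap. For *Csf1r* the log2 fold change was 0.77 ± 0.10 (SE) in B6J.*Gtpbp1*-/- mice (edgeR adjusted p = 0.000224) and 0.75 ± 0.09 (SE) in B6J-*Gtpbp2*-/- mice (edgeR adjusted p = 0.000522). These 2 calls held in all 13 alternative fits of each comparison.

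*P2ry12*, which encodes the ADP receptor that guides microglial processes toward injured cells, was at 10.96, 10.03 and 15.4 CPM in B6J, 17.4, 14.9 and 13.5 CPM in B6J.*Gtpbp1*-/- and 18.4, 13.4 and 18.7 CPM in B6J-*Gtpbp2*-/- libraries in RNA. B6J replicate 3 was higher than the lowest B6J.*Gtpbp1*-/- and B6J-*Gtpbp2*-/- libraries, so the groups overlapped in CPM. In TPM they did not. B6J libraries were at 13.3, 14.4 and 20.4 TPM, B6J.*Gtpbp1*-/- at 26.3, 21.9 and 21.5, and B6J-*Gtpbp2*-/- at 27.02, 21.3 and 28.4. For *P2ry12* the log2 fold change was 0.32 ± 0.17 (SE) in B6J.*Gtpbp1*-/- mice (edgeR adjusted p = 0.254) and 0.46 ± 0.19 (SE) in B6J-*Gtpbp2*-/- mice (edgeR adjusted p = 0.163). Without B6J replicate 3 *P2ry12* was called in both mutants (edgeR adjusted p = 0.0249 and 0.0392), and in none of the other 12 alternatives of either comparison. *Tmem119*, a marker of resident microglia, was at 6.65, 5.66 and 4.54 CPM in B6J, 7.95, 6.88 and 5.71 CPM in B6J.*Gtpbp1*-/- and 7.38, 5.51 and 6.32 CPM in B6J-*Gtpbp2*-/- libraries in RNA. The groups overlapped in CPM. In TPM, B6J.*Gtpbp1*-/- libraries (6.00, 5.28 and 5.56) lay above B6J libraries (4.58, 3.86 and 3.04), while B6J-*Gtpbp2*-/- libraries (6.68, 4.21 and 4.78) overlapped them. For *Tmem119* the log2 fold change was 0.28 ± 0.20 (SE) in B6J.*Gtpbp1*-/- mice (edgeR adjusted p = 0.430) and 0.18 ± 0.20 (SE) in B6J-*Gtpbp2*-/- mice (edgeR adjusted p = 0.682), with no call in any of the 13 alternatives. The 95% intervals of the *Tmem119* log2 fold change were -0.15 to 0.71 and -0.27 to 0.63.

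The activation genes *Trem2* and *Cd68* had estimated fold changes above those of the surveillance genes. This difference was not tested, and their 95% intervals overlapped that of *Cx3cr1* in both mutants. *Trem2*, which encodes a receptor for lipids and cell debris, was at 3.70, 3.98 and 3.47 CPM in B6J, 12.5, 8.35 and 8.29 CPM in B6J.*Gtpbp1*-/- and 7.91, 10.7 and 9.08 CPM in B6J-*Gtpbp2*-/- libraries in RNA. All mutant libraries were above all B6J libraries, with B6J.*Gtpbp1*-/- replicate 1 the highest. For *Trem2* the log2 fold change was 1.38 ± 0.20 (SE) in B6J.*Gtpbp1*-/- mice (edgeR adjusted p = 0.000457) and 1.31 ± 0.18 (SE) in B6J-*Gtpbp2*-/- mice (edgeR adjusted p = 0.00149). *Cd68*, which encodes a glycoprotein of lysosomes and late endosomes in phagocytes, was at 3.04, 2.07 and 2.40 CPM in B6J, 7.75, 5.98 and 5.50 CPM in B6J.*Gtpbp1*-/- and 6.26, 7.21 and 7.14 CPM in B6J-*Gtpbp2*-/- libraries in RNA. The groups did not overlap. For *Cd68* the log2 fold change was 1.35 ± 0.23 (SE) in B6J.*Gtpbp1*-/- mice (edgeR adjusted p = 0.00158) and 1.45 ± 0.21 (SE) in B6J-*Gtpbp2*-/- mice (edgeR adjusted p = 0.00195). Both genes were called in all 13 alternatives of both comparisons.

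*Aif1*, which encodes the calcium-binding protein used to stain microglia as Iba1, was at 0.786, 0.775 and 2.02 CPM in B6J, 3.51, 3.09 and 2.22 CPM in B6J.*Gtpbp1*-/- and 2.12, 2.74 and 2.66 CPM in B6J-*Gtpbp2*-/- libraries in RNA. B6J replicate 3 was higher than the other B6J libraries and close to the lowest mutant libraries, although the groups did not overlap in CPM. For *Aif1* the log2 fold change was 1.29 ± 0.38 (SE) in B6J.*Gtpbp1*-/- mice (edgeR adjusted p = 0.0408) and 1.06 ± 0.39 (SE) in B6J-*Gtpbp2*-/- mice (edgeR adjusted p = 0.121). The *Aif1* call in B6J.*Gtpbp1*-/- mice was kept in 6 of 13 alternatives. It was lost without B6J.*Gtpbp1*-/- replicate 1 (edgeR adjusted p = 0.149), B6J.*Gtpbp1*-/- replicate 2 (0.134), B6J.*Gtpbp1*-/- replicate 3 (0.0514), B6J replicate 1 (0.135) or B6J replicate 2 (0.145), and with an offset for transcript length (0.373). A block for replicate number also ended this *Aif1* call. In B6J-*Gtpbp2*-/- mice *Aif1* was called in 3 of 13 alternatives, which were no filter on low counts (edgeR adjusted p = 0.0404), protein-coding transcripts alone (0.0136) and the fit without B6J replicate 3 (0.0102). *Aif1* was at 2.208, 2.198 and 9.332 TPM (a level per transcript length) in the B6J libraries, of which transcripts annotated as protein-coding made up 100%, 97.6% and 24.2%. That share was 98.2%, 96.3% and 100% in B6J.*Gtpbp1*-/- libraries and 91.1%, 60.1% and 73.3% in B6J-*Gtpbp2*-/- libraries, so a lower share was not particular to B6J replicate 3. *Aif1* was at 11.3, 9.92 and 7.25 TPM in B6J.*Gtpbp1*-/- and 6.90, 11.7 and 10.3 TPM in B6J-*Gtpbp2*-/- libraries. In TPM both mutants thus overlapped B6J. On protein-coding transcripts alone the log2 fold change was 1.94 in B6J.*Gtpbp1*-/- mice (edgeR adjusted p = 0.00234) and 1.57 in B6J-*Gtpbp2*-/- mice.

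The 3 C1q genes, whose products assemble into the recognition molecule of the classical complement pathway, had the smallest adjusted p of the 10 genes in both mutants. *C1qa* RNA was at 10.5, 10.2 and 10.7 CPM in B6J, 29.2, 24.9 and 27.4 CPM in B6J.*Gtpbp1*-/- and 23.9, 28.7 and 26.2 CPM in B6J-*Gtpbp2*-/- libraries. *C1qb* RNA was at 12.2, 12.1 and 13.4 CPM in B6J, 33.1, 29.9 and 30.5 CPM in B6J.*Gtpbp1*-/- and 24.3, 29.6 and 30.4 CPM in B6J-*Gtpbp2*-/- libraries. *C1qc* RNA was at 10.96, 10.3 and 9.77 CPM in B6J, 33.2, 24.96 and 26.3 CPM in B6J.*Gtpbp1*-/- and 24.6, 26.8 and 24.2 CPM in B6J-*Gtpbp2*-/- libraries. For each of them, the highest B6J library was below the lowest mutant library. *C1qa* rose 2.59-fold in B6J.*Gtpbp1*-/- mice (log2 fold change 1.37 ± 0.11 (SE), edgeR adjusted p = 3.45e-06) and 2.50-fold in B6J-*Gtpbp2*-/- mice (log2 fold change 1.32 ± 0.12 (SE), edgeR adjusted p = 8.98e-05). *C1qb* rose 2.47-fold in B6J.*Gtpbp1*-/- mice (log2 fold change 1.30 ± 0.10 (SE), edgeR adjusted p = 3.53e-06) and 2.23-fold in B6J-*Gtpbp2*-/- mice (log2 fold change 1.15 ± 0.12 (SE), edgeR adjusted p = 0.000266). *C1qc* rose 2.71-fold in B6J.*Gtpbp1*-/- mice (log2 fold change 1.44 ± 0.13 (SE), edgeR adjusted p = 9.40e-06) and 2.42-fold in B6J-*Gtpbp2*-/- mice (log2 fold change 1.28 ± 0.12 (SE), edgeR adjusted p = 9.80e-05). All 6 calls held in the 13 alternatives of their comparison.

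**Figure D2:**
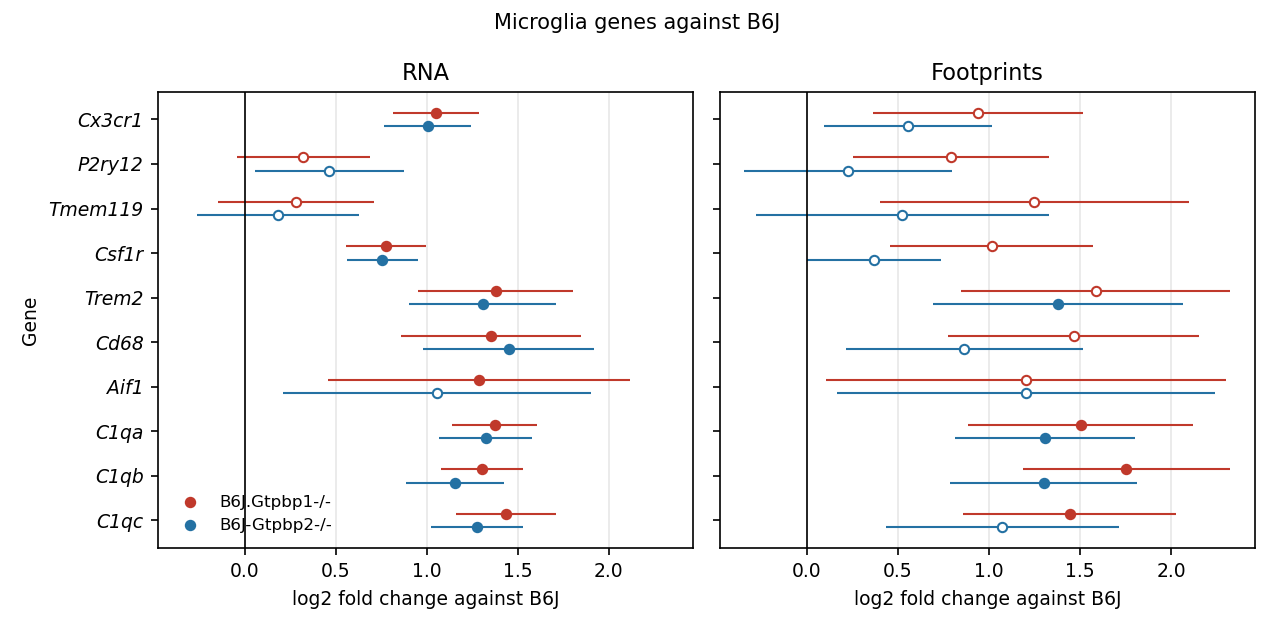
Log2 fold change of each of the 10 microglia genes against B6J in RNA and in footprints, with B6J.*Gtpbp1*-/- mice in red and B6J-*Gtpbp2*-/- mice in blue, horizontal bars for the 95% interval, filled dots at an edgeR adjusted p of at most 0.05 and open dots above it. In RNA the values run from 0.18 (*Tmem119* in B6J-*Gtpbp2*-/- mice) to 1.45 (*Cd68* in B6J-*Gtpbp2*-/- mice), and the dots of all 10 genes lie above 0 in both panels.

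Surveillance and activation genes were then set against each other within each library, using the mean log2 CPM of the genes of a class (with a prior count of 2), with no test. The surveillance mean in RNA was 3.71 ± 0.02 (SD, n = 3) in B6J, 4.32 ± 0.18 in B6J.*Gtpbp1*-/- libraries and 4.32 ± 0.15 in B6J-*Gtpbp2*-/- libraries. The activation mean was 1.13 ± 0.23, 2.49 ± 0.29 and 2.44 ± 0.17 in the same order, and the C1q mean was 3.47 ± 0.03, 4.84 ± 0.13 and 4.73 ± 0.11. For all 3 classes the mutant libraries lay above the B6J libraries. The surveillance mean differed from B6J by 0.62 and 0.61, the activation mean by 1.36 and 1.31, and the C1q mean by 1.37 and 1.25 (log2, B6J.*Gtpbp1*-/- before B6J-*Gtpbp2*-/-). The activation mean minus the surveillance mean of the same library was -2.63, -2.75 and -2.35 in B6J, -1.69, -1.88 and -1.92 in B6J.*Gtpbp1*-/- and -2.17, -1.56 and -1.90 in B6J-*Gtpbp2*-/- mice. This within-library difference did not overlap between B6J and either mutant, and was greater by 0.75 and 0.70. The C1q mean minus the surveillance mean was greater by 0.75 and 0.64, also without overlap. The activation mean of B6J replicate 3 includes the *Aif1* value described above.

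**Figure D3:**
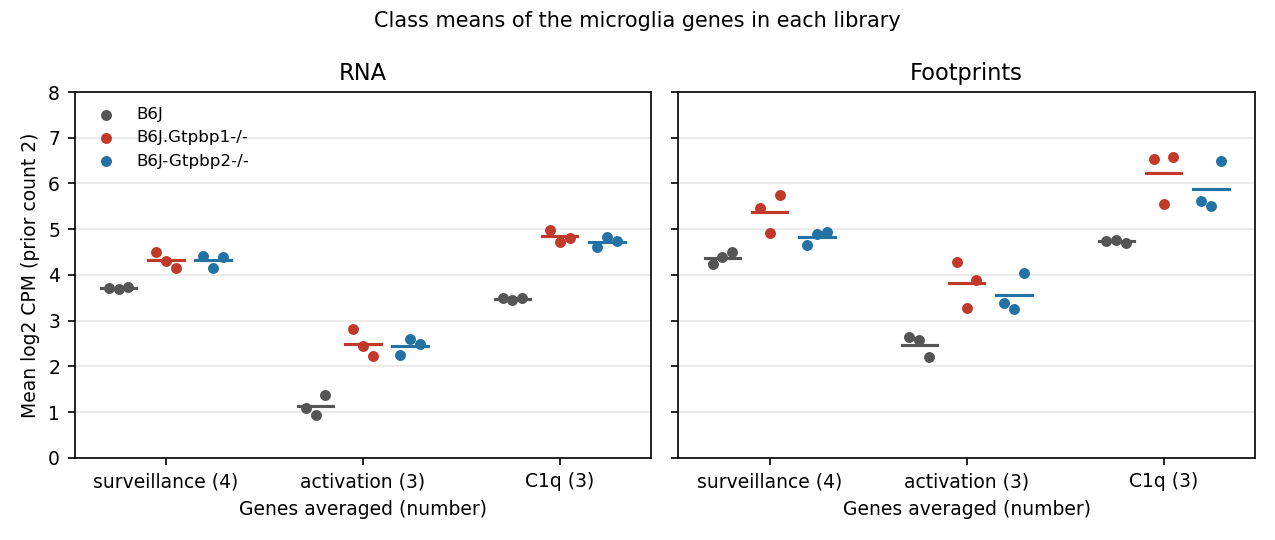
Mean log2 CPM of the surveillance genes (*Cx3cr1*, *P2ry12*, *Tmem119*, *Csf1r*), the activation genes (*Trem2*, *Cd68*, *Aif1*) and the C1q genes (*C1qa*, *C1qb*, *C1qc*) in each library, for RNA and footprints, with 1 dot for each of the 3 libraries of a genotype and a short line at their mean. The mean RNA difference from B6J in B6J.*Gtpbp1*-/- mice is 0.62 for surveillance, 1.36 for activation and 1.37 for C1q genes.

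Levels of different genes were compared per transcript length, in TPM. In B6J mice the order was *C1qb* (20.8 ± 0.991 TPM, SD, n = 3), *C1qa* (17.7 ± 0.371), *P2ry12* (16.1 ± 3.84), *C1qc* (14.6 ± 0.999), *Csf1r* (12.2 ± 0.935), *Cx3cr1* (7.35 ± 0.226), *Cd68* (4.65 ± 2.16), *Trem2* (4.61 ± 0.863), *Aif1* (4.58 ± 4.12) and *Tmem119* (3.82 ± 0.771). Of neighbors in this order, every library of *C1qb* was above every library of *C1qa*, and the same held for *C1qc* over *Csf1r*, *Csf1r* over *Cx3cr1* and *Cx3cr1* over *Cd68*, while the other neighbors overlapped. In B6J.*Gtpbp1*-/- mice the 3 C1q genes were at the top, with *C1qb* at 59.4 ± 2.76, *C1qa* at 53.1 ± 4.06 and *C1qc* at 45.3 ± 6.52 TPM, followed by *Csf1r* (23.5 ± 2.56) and *P2ry12* (23.2 ± 2.66). In B6J-*Gtpbp2*-/- mice they were at 52.1 ± 6.77, 49.9 ± 4.96 and 39.9 ± 2.49 TPM, followed by *P2ry12* (25.6 ± 3.73) and *Csf1r* (23.02 ± 0.797). *Tmem119* was the lowest in both mutants, at 5.61 ± 0.367 TPM in B6J.*Gtpbp1*-/- and 5.22 ± 1.29 TPM in B6J-*Gtpbp2*-/- mice. In B6J replicates 1 and 2 *Aif1* was below *Tmem119*, and the reverse order of their B6J means comes from replicate 3. *Cd68* was at 7.14, 3.24 and 3.58 TPM in the B6J libraries, and 47.6% of it was protein-coding in replicate 1. It was below *Trem2* in replicates 2 and 3, so its place above *Trem2* comes from replicate 1.

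Summed over the 10 genes, RNA made up 103 ± 1.75 CPM (SD, n = 3) in B6J, 209 ± 23.03 CPM in B6J.*Gtpbp1*-/- and 202 ± 6.19 CPM in B6J-*Gtpbp2*-/- mice. Footprints made up 222 ± 16.9, 533 ± 173 and 387 ± 103 CPM, with a wider spread among mutant libraries.

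Footprints, which report where ribosomes were on the coding sequence, gave fewer calls than RNA, from libraries with fewer counts. In B6J.*Gtpbp1*-/- mice 3 of the 10 genes rose, the C1q genes, where 0.573% of the 13956 genes tested rose. *C1qa*, *C1qb* and *Trem2* rose in B6J-*Gtpbp2*-/- mice, where 1.28% of 13797 rose. None fell in either. For 9 of the 10 genes every B6J.*Gtpbp1*-/- footprint library was above every B6J library, against 9.02% of all genes tested, and for 6 of 10 every B6J-*Gtpbp2*-/- library was, against 10.5%. The median log2 fold change was 1.35 in B6J.*Gtpbp1*-/- mice, against 0.97 for B6J-*Gtpbp2*-/- mice, with medians over all genes tested of 0.01 and 0.01. All 10 were positive in both comparisons with TMM, DESeq2 and upper quartile normalization. DESeq2 called 7 and 4 of the genes, against 406 and 655 genes in all, of which 251 and 300 were higher. At an unadjusted edgeR p under 0.05 there were 10 and 7 of the genes, and 1763 of 13956 and 2355 of 13797 genes in all. The number called in B6J.*Gtpbp1*-/- mice was 1 without B6J.*Gtpbp1*-/- replicate 1, 6 without B6J.*Gtpbp1*-/- replicate 2, 0 without B6J replicate 1 and 1 without B6J replicate 2. Over all genes, 80 rose in B6J.*Gtpbp1*-/- mice, and this number was 31 without B6J.*Gtpbp1*-/- replicate 1, 18 without B6J replicate 1 and 37 without B6J replicate 2. There were 176 that rose in B6J-*Gtpbp2*-/- mice, and this number was 55 without B6J-*Gtpbp2*-/- replicate 1, 83 without B6J-*Gtpbp2*-/- replicate 2, 101 without B6J replicate 1, 96 without B6J replicate 2 and 297 without B6J replicate 3. Without B6J-*Gtpbp2*-/- replicate 3, the library that was highest for 9 of 10 genes, the median of the 10 genes in B6J-*Gtpbp2*-/- mice was 0.56 and 2 were called.

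*C1qb* footprints were at 20.7, 28.1 and 26.5 CPM in B6J, 98.8, 53.1 and 102 CPM in B6J.*Gtpbp1*-/- and 51.04, 46.3 and 86.9 CPM in B6J-*Gtpbp2*-/- libraries. The groups did not overlap. The *C1qb* log2 fold change was 1.76 ± 0.26 (SE) in B6J.*Gtpbp1*-/- mice (edgeR adjusted p = 0.00823) and 1.30 ± 0.24 (SE) in B6J-*Gtpbp2*-/- mice (edgeR adjusted p = 0.00833). Its call was lost without B6J replicate 1 in both comparisons (edgeR adjusted p = 0.0862 and 0.0501). *C1qa* footprints were at 29.2, 23.5 and 23.9 CPM in B6J, 95.6, 40.6 and 80.6 CPM in B6J.*Gtpbp1*-/- and 53.1, 47.1 and 87.5 CPM in B6J-*Gtpbp2*-/- libraries. No mutant library was as low as the B6J libraries. The *C1qa* log2 fold change was 1.50 ± 0.29 (SE) in B6J.*Gtpbp1*-/- mice (edgeR adjusted p = 0.0305) and 1.31 ± 0.23 (SE) in B6J-*Gtpbp2*-/- mice (edgeR adjusted p = 0.00683). The *C1qa* call in B6J.*Gtpbp1*-/- mice was lost without B6J.*Gtpbp1*-/- replicate 1 (0.124) or B6J replicate 1 (0.143), 2 (0.140) or 3 (0.0669) (edgeR adjusted p in parentheses). A block for replicate number also ended this *C1qa* call. *C1qc* footprints were at 30.6, 29.4 and 26.6 CPM in B6J, 84.8, 45.8 and 105 CPM in B6J.*Gtpbp1*-/- and 43.5, 41.4 and 95.3 CPM in B6J-*Gtpbp2*-/- libraries. These groups did not overlap either. The *C1qc* log2 fold change was 1.44 ± 0.27 (SE) in B6J.*Gtpbp1*-/- mice (edgeR adjusted p = 0.0281) and 1.07 ± 0.29 (SE) in B6J-*Gtpbp2*-/- mice (edgeR adjusted p = 0.0812). The *C1qc* call in B6J.*Gtpbp1*-/- mice was lost without B6J.*Gtpbp1*-/- replicate 1 (0.107) or B6J replicate 1 (0.160), 2 (0.110) or 3 (0.0652) and with all 9 libraries in 1 model (0.0644), all edgeR adjusted p, while DESeq2 called it in B6J-*Gtpbp2*-/- mice (adjusted p = 0.0101). With the block for replicate number, the *C1qc* call in B6J.*Gtpbp1*-/- mice was lost too.

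*Trem2* footprints were at 9.21, 5.49 and 6.41 CPM in B6J, 24.02, 12.5 and 26.97 CPM in B6J.*Gtpbp1*-/- and 14.7, 13.6 and 25.8 CPM in B6J-*Gtpbp2*-/- libraries. All mutant libraries were above all B6J libraries. The *Trem2* log2 fold change was 1.59 ± 0.34 (SE) in B6J.*Gtpbp1*-/- mice (edgeR adjusted p = 0.0559) and 1.38 ± 0.32 (SE) in B6J-*Gtpbp2*-/- mice (edgeR adjusted p = 0.0330). The *Trem2* call in B6J-*Gtpbp2*-/- mice was lost without B6J-*Gtpbp2*-/- replicate 1 (0.0774), 2 (0.0568) or 3 (0.156) or B6J replicate 2 (0.117) or 3 (0.0539) and with all 9 libraries in 1 model (0.0550), all edgeR adjusted p. *Trem2* in B6J.*Gtpbp1*-/- mice was called by DESeq2 (adjusted p = 0.00194), with upper quartile normalization (edgeR adjusted p = 0.0466), no filter on low counts (0.0146), all 9 libraries in 1 model (0.0382) and without B6J.*Gtpbp1*-/- replicate 2 (0.0166). *Cd68* footprints were at 10.8, 7.46 and 8.02 CPM in B6J, 34.9, 18.2 and 18.99 CPM in B6J.*Gtpbp1*-/- and 11.7, 13.9 and 21.7 CPM in B6J-*Gtpbp2*-/- libraries. The groups did not overlap, the lowest B6J-*Gtpbp2*-/- library being close to the highest B6J library. The *Cd68* log2 fold change was 1.46 ± 0.32 (SE) in B6J.*Gtpbp1*-/- mice (edgeR adjusted p = 0.0570) and 0.87 ± 0.31 (SE) in B6J-*Gtpbp2*-/- mice (edgeR adjusted p = 0.156). *Cd68* was called in B6J.*Gtpbp1*-/- mice by DESeq2 (adjusted p = 0.00257), with upper quartile normalization (edgeR adjusted p = 0.0466), no filter (0.0165) and all 9 libraries (0.0392), without B6J.*Gtpbp1*-/- replicate 2 (0.0492) and without B6J.*Gtpbp1*-/- replicate 3 (0.0387). *Aif1* footprints were at 2.02, 4.39 and 1.44 CPM in B6J, 8.44, 3.54 and 5.94 CPM in B6J.*Gtpbp1*-/- and 5.93, 4.09 and 7.51 CPM in B6J-*Gtpbp2*-/- libraries, from as few as 9 counts in a library. The groups overlapped. The *Aif1* log2 fold change was 1.20 ± 0.51 (SE) in B6J.*Gtpbp1*-/- mice (edgeR adjusted p = 0.340) and 1.20 ± 0.49 (SE) in B6J-*Gtpbp2*-/- mice (edgeR adjusted p = 0.220), with wide intervals.

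No surveillance gene was called in footprints. *Cx3cr1* footprints were at 18.2, 25.02 and 21.97 CPM in B6J, 49.5, 26.3 and 49.5 CPM in B6J.*Gtpbp1*-/- and 27.6, 30.2 and 37.5 CPM in B6J-*Gtpbp2*-/- libraries. The groups did not overlap. The *Cx3cr1* log2 fold change was 0.94 ± 0.27 (SE) in B6J.*Gtpbp1*-/- mice (edgeR adjusted p = 0.132) and 0.55 ± 0.22 (SE) in B6J-*Gtpbp2*-/- mice (edgeR adjusted p = 0.203). *Csf1r* footprints were at 71.4, 94.6 and 70.4 CPM in B6J, 155, 102 and 221 CPM in B6J.*Gtpbp1*-/- and 97.2, 92.6 and 114 CPM in B6J-*Gtpbp2*-/- libraries. All B6J.*Gtpbp1*-/- libraries were above B6J, B6J.*Gtpbp1*-/- replicate 2 by little, while B6J-*Gtpbp2*-/- replicate 2 was below the highest B6J library. The *Csf1r* log2 fold change was 1.01 ± 0.26 (SE) in B6J.*Gtpbp1*-/- mice (edgeR adjusted p = 0.0995) and 0.37 ± 0.17 (SE) in B6J-*Gtpbp2*-/- mice (edgeR adjusted p = 0.296). *P2ry12* footprints were at 17.1, 19.8 and 13.9 CPM in B6J, 33.03, 22.5 and 32.2 CPM in B6J.*Gtpbp1*-/- and 14.5, 25.9 and 19.3 CPM in B6J-*Gtpbp2*-/- libraries, and *Tmem119* footprints were at 5.17, 3.73 and 11.4 CPM in B6J, 14.01, 13.03 and 22.2 CPM in B6J.*Gtpbp1*-/- and 9.52, 10.1 and 10.1 CPM in B6J-*Gtpbp2*-/- libraries. For both genes, B6J-*Gtpbp2*-/- libraries overlapped B6J libraries and B6J.*Gtpbp1*-/- libraries did not. The *P2ry12* log2 fold change was 0.79 ± 0.25 (SE) in B6J.*Gtpbp1*-/- mice (edgeR adjusted p = 0.173) and 0.23 ± 0.27 (SE) in B6J-*Gtpbp2*-/- mice (edgeR adjusted p = 0.727). The *Tmem119* log2 fold change was 1.25 ± 0.39 (SE) in B6J.*Gtpbp1*-/- mice (edgeR adjusted p = 0.174) and 0.52 ± 0.38 (SE) in B6J-*Gtpbp2*-/- mice (edgeR adjusted p = 0.526). Alternatives called 3 of these 4 genes in B6J.*Gtpbp1*-/- mice, *Csf1r* by DESeq2 (adjusted p = 0.0128), with no filter (edgeR adjusted p = 0.0416), with all 9 libraries (0.0460) and without B6J.*Gtpbp1*-/- replicate 2 (0.0253), *Cx3cr1* by DESeq2 (adjusted p = 0.0489) and *Tmem119* without B6J replicate 3 (edgeR adjusted p = 0.0461).

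In footprints the class means also lay above B6J in every mutant library, by 0.99 and 0.45 for surveillance, 1.34 and 1.08 for activation and 1.49 and 1.14 for C1q genes (log2, B6J.*Gtpbp1*-/- before B6J-*Gtpbp2*-/-). The activation mean minus the surveillance mean was -1.59, -1.82 and -2.29 in B6J, -1.16, -1.64 and -1.84 in B6J.*Gtpbp1*-/- and -1.27, -1.63 and -0.90 in B6J-*Gtpbp2*-/- mice, which overlapped. In RNA they did not. The C1q mean minus the surveillance mean was greater by 0.50 and 0.69 without overlap.

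Per length of coding sequence, the C1q genes had the most footprints of the 10 genes in B6J mice. In B6J mice *C1qc* was at 39.1 ± 2.74 footprint CPM per kilobase (SD, n = 3), *C1qa* at 34.7 ± 4.34, *C1qb* at 33.03 ± 5.14, *Csf1r* at 26.9 ± 4.67, *Cx3cr1* at 20.5 ± 3.22, *P2ry12* at 16.3 ± 2.79, *Trem2* at 9.42 ± 2.60, *Cd68* at 8.71 ± 1.77, *Tmem119* at 8.05 ± 4.84 and *Aif1* at 4.55 ± 2.71. Of neighbors in this order, every library of the higher gene was above every library of the lower for *Csf1r* over *Cx3cr1* and *P2ry12* over *Trem2*, while the other neighbors overlapped. In B6J.*Gtpbp1*-/- mice *C1qb* was the highest (112 ± 36.1) and in B6J-*Gtpbp2*-/- mice *C1qa* (85.1 ± 29.6), while *Aif1* was the lowest in both (10.4 ± 4.25 and 10.1 ± 2.97). The ratio of footprints per kilobase to TPM in B6J mice was set beside that of 12637 genes, whose median was -0.15 on the log2 scale. *Cx3cr1* was at 1.48 (93.6th percentile), *C1qc* at 1.42 (92.9th), *Csf1r* at 1.13 (88.7th), *Tmem119* at 1.07 (87.5th), *Trem2* at 1.03 (86.7th), *C1qa* at 0.97 (85.4th), *Cd68* at 0.90 (84.0th) and *C1qb* at 0.67 (78.1st). *P2ry12* (0.02, 55.9th percentile) and *Aif1* (-0.01, 55.1st) were near the middle, but the mean TPM of *Aif1* was raised by B6J replicate 3, as described above, and its place depends on that library. The mean TPM of *Cd68* was likewise raised by B6J replicate 1.

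Translational efficiency, the ratio of footprints to RNA, was tested as the interaction of assay and genotype in 1 model. None of the 10 genes was called by edgeR in B6J.*Gtpbp1*-/- mice, where 0% of 13086 genes were, and none in B6J-*Gtpbp2*-/- mice, where 0.00773% of 12931 were. At an unadjusted p under 0.05 there were 0 and 0 of the 10 genes and 1170 and 1554 of all genes, and DESeq2 called 0 and 0 of the 10, with 1 and 2 at an unadjusted p under 0.05, and 58 and 160 of all genes. In B6J.*Gtpbp1*-/- mice the log2 change in efficiency ran from -0.11 (*Cx3cr1*, 95% interval -0.74 to 0.53) to 0.97 (*Tmem119*, -0.03 to 1.96, edgeR adjusted p = 0.571), with a median of 0.18 against 0.03 over all genes. In B6J-*Gtpbp2*-/- mice it ran from -0.57 (*Cd68*, -1.37 to 0.22, edgeR adjusted p = 0.566) to 0.34 (*Tmem119*, -0.61 to 1.29), with a median of -0.10 against 0.03, and the lowest adjusted p was that of *Csf1r* (-0.38, edgeR adjusted p = 0.443). Without the footprint library of B6J replicate 3, 174 and 158 of all genes were called, and in each fit without 1 library 0 of the 10 were. The widest 95% intervals reached 1.45 and 1.42 to either side of the estimate, so changes in efficiency within the intervals are not excluded.

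The mutants were also compared with each other. In RNA, none of the 10 genes was called by edgeR, where 0.0595% of 25190 genes were, none was at an unadjusted p under 0.05 (899 of all genes were), and DESeq2 called 0 of the 10 and 46 of all genes. The log2 fold change of B6J.*Gtpbp1*-/- over B6J-*Gtpbp2*-/- mice ran from -0.14 (*P2ry12*) to 0.23 (*Aif1*), with a median of 0.06, and the half-width of the 95% interval was at most 0.51. In footprints none was called by edgeR, where 0% of 14142 genes were, while 3 of the 10 and 1523 of all genes were at an unadjusted p under 0.05, and DESeq2 called 0 of the 10 and 100 of all genes. These 3 were *Tmem119* (log2 fold change 0.71 ± 0.27 (SE), edgeR adjusted p = 0.392), *Csf1r* (0.64 ± 0.24 (SE), edgeR adjusted p = 0.398) and *P2ry12* (0.56 ± 0.26 (SE), edgeR adjusted p = 0.463), all of the surveillance class. *Tmem119* footprints did not overlap between the mutants, and the median over the 10 genes was 0.41.

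Other genes of resident microglia were taken from a list of 11, which left out the 10 genes above. In RNA, 6 of 11 rose in B6J.*Gtpbp1*-/- mice and 5 of 11 in B6J-*Gtpbp2*-/- mice, and none fell. *Fcrls*, an Fc receptor-like gene typical of microglia, was at 11.5, 8.05 and 10.7 CPM in B6J, 26.9, 25.00 and 29.5 CPM in B6J.*Gtpbp1*-/- and 18.9, 31.4 and 31.2 CPM in B6J-*Gtpbp2*-/- libraries. All mutant libraries were above B6J. For *Fcrls* the log2 fold change was 1.42 ± 0.14 (SE) in B6J.*Gtpbp1*-/- mice (edgeR adjusted p = 2.21e-05) and 1.42 ± 0.21 (SE) in B6J-*Gtpbp2*-/- mice (edgeR adjusted p = 0.00277). *Olfml3* rose by a log2 fold change of 1.01 ± 0.14 (SE) in B6J.*Gtpbp1*-/- mice (edgeR adjusted p = 0.000290) and 0.98 ± 0.15 (SE) in B6J-*Gtpbp2*-/- mice (edgeR adjusted p = 0.00266). These calls were lost on protein-coding transcripts alone (edgeR adjusted p = 0.132 and 0.0629) and with the length offset (0.0867 and 0.151). In footprints, 2 of 11 rose in each mutant, *Fcrls* (log2 fold change 2.14, edgeR adjusted p = 0.00554, and 1.43, edgeR adjusted p = 0.00494) and *Olfml3*. The latter was at log2 fold changes of 1.66 (edgeR adjusted p = 0.0327) and 1.15 (edgeR adjusted p = 0.0160). The *Fcrls* footprint call in B6J.*Gtpbp1*-/- mice was lost without B6J replicate 1 (edgeR adjusted p = 0.0600), and that of *Olfml3* without B6J.*Gtpbp1*-/- replicate 1 (0.146) or 3 (0.0514) or B6J replicate 1 (0.197), 2 (0.108) or 3 (0.0612). The *Olfml3* call in B6J-*Gtpbp2*-/- mice was lost without B6J-*Gtpbp2*-/- replicate 1 (0.0677) or 3 (0.0697) or B6J replicate 1 (0.0739).

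A list of 20 further genes that microglia express when activated or near damaged tissue held 18 tested genes in the first comparison and 17 in the other. In RNA, 12 of 18 rose in B6J.*Gtpbp1*-/- mice (median log2 fold change 1.39) and 5 of 17 in B6J-*Gtpbp2*-/- mice (median 1.05), and none fell. The difference between these counts was not tested. Some genes of the list were near 0 in B6J, such as *Cst7* with 0, 1 and 5 estimated counts. They passed the filter on low counts only through mutant libraries and could only be called higher. The number that rose, the medians and the absence of falls thus depend in part on the filter. *Lpl*, which encodes lipoprotein lipase, was at 3.42, 3.38 and 3.37 CPM in B6J, 16.8, 13.4 and 14.2 CPM in B6J.*Gtpbp1*-/- and 9.13, 21.2 and 16.3 CPM in B6J-*Gtpbp2*-/- libraries. The 3 B6J libraries were close together and all mutant libraries were above them. For *Lpl* the log2 fold change was 2.12 ± 0.15 (SE) in B6J.*Gtpbp1*-/- mice (edgeR adjusted p = 1.79e-06) and 2.19 ± 0.27 (SE) in B6J-*Gtpbp2*-/- mice (edgeR adjusted p = 0.000830). *Cst7*, which encodes the protease inhibitor cystatin F, was at 0, 0.0215 and 0.0991 CPM in B6J, 1.76, 1.63 and 1.85 CPM in B6J.*Gtpbp1*-/- and 0.983, 1.90 and 2.55 CPM in B6J-*Gtpbp2*-/- libraries, so it was close to 0 in B6J and above that in every mutant library (edgeR adjusted p = 0.000155 and 0.00130). *Clec7a*, which encodes the pattern receptor dectin-1, was at 0.616, 0.237 and 1.05 CPM in B6J, 4.19, 3.19 and 3.99 CPM in B6J.*Gtpbp1*-/- and 0.812, 4.09 and 3.90 CPM in B6J-*Gtpbp2*-/- libraries. It rose in B6J.*Gtpbp1*-/- mice (log2 fold change 2.56 ± 0.42 (SE), edgeR adjusted p = 0.00143), while in B6J-*Gtpbp2*-/- mice replicate 1 lay within the B6J range (2.19 ± 0.68 (SE), edgeR adjusted p = 0.0915). *Gpnmb* rose in B6J.*Gtpbp1*-/- mice (log2 fold change 1.55 ± 0.28 (SE), edgeR adjusted p = 0.00271) and B6J-*Gtpbp2*-/- mice (1.17 ± 0.25 (SE), edgeR adjusted p = 0.0140), the second call being lost without B6J-*Gtpbp2*-/- replicate 2 (0.0632) or 3 (0.0671) or B6J replicate 1 (0.0571). *Apoe*, the most abundant gene of the list, which astrocytes also express, was at 677, 789 and 842 CPM in B6J, 1052, 857 and 878 CPM in B6J.*Gtpbp1*-/- and 1014, 878 and 687 CPM in B6J-*Gtpbp2*-/- libraries, with overlap in B6J-*Gtpbp2*-/- mice alone and no call in either (edgeR adjusted p = 0.121 and 0.585). In footprints, edgeR called 0 of 15 tested genes of this list in B6J.*Gtpbp1*-/- mice and 1 of 15 in B6J-*Gtpbp2*-/- mice, *Lpl* (log2 fold change 1.48 ± 0.34 (SE), edgeR adjusted p = 0.0316), which was lost without B6J-*Gtpbp2*-/- replicate 1 (0.0816), 2 (0.0737) or 3 (0.131) or B6J replicate 1 (0.0532) or 2 (0.0987).

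Among 12 genes that microglia share with other myeloid cells, 9 rose in RNA in B6J.*Gtpbp1*-/- mice (median 1.19) and 8 in B6J-*Gtpbp2*-/- mice (median 0.93). *Ctss*, which encodes the lysosomal protease cathepsin S, was at 20.9, 18.02 and 21.2 CPM in B6J, 56.02, 48.5 and 45.1 CPM in B6J.*Gtpbp1*-/- and 37.7, 38.6 and 38.8 CPM in B6J-*Gtpbp2*-/- libraries. Every mutant library was above B6J. For *Ctss* the log2 fold change was 1.31 ± 0.11 (SE) in B6J.*Gtpbp1*-/- mice (edgeR adjusted p = 4.67e-06) and 0.93 ± 0.10 (SE) in B6J-*Gtpbp2*-/- mice (edgeR adjusted p = 0.000304). *Laptm5*, a lysosomal membrane protein gene of leukocytes, was at 8.69, 9.15 and 8.26 CPM in B6J, 23.4, 18.8 and 18.3 CPM in B6J.*Gtpbp1*-/- and 19.9, 20.3 and 21.9 CPM in B6J-*Gtpbp2*-/- libraries, again without overlap (1.21 and 1.24, edgeR adjusted p = 5.20e-05 and 0.000151). *Ly86*, whose product binds a Toll-like receptor relative, rose by a log2 fold change of 1.50 ± 0.17 (SE) and 1.49 ± 0.19 (SE) (edgeR adjusted p = 5.60e-05 and 0.000850). In footprints, 3 of 11 rose in B6J.*Gtpbp1*-/- mice, *Laptm5* (1.46, edgeR adjusted p = 0.0246), *Itgb2*, an integrin subunit (1.86, edgeR adjusted p = 0.0400), and *Ly86* (1.63, edgeR adjusted p = 0.0400), and edgeR called 0 of 10 in B6J-*Gtpbp2*-/- mice. Without B6J replicate 1 none of these 3 footprint calls held (edgeR adjusted p = 0.179, 0.179 and 0.160), nor without B6J.*Gtpbp1*-/- replicate 1 (0.0781, 0.192 and 0.195) or B6J replicate 3 (0.0612, 0.0612 and 0.0628). Those of *Itgb2* and *Ly86* were also lost without B6J replicate 2 (0.129 and 0.137) and B6J.*Gtpbp1*-/- replicate 3 (0.0615 and 0.0514).

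Ligands of the receptors were examined next. *Csf1*, which encodes the growth factor that binds the product of *Csf1r*, was at 23.6, 21.1 and 22.2 CPM in B6J, 34.7, 33.7 and 33.5 CPM in B6J.*Gtpbp1*-/- and 34.5, 36.2 and 32.8 CPM in B6J-*Gtpbp2*-/- libraries in RNA. No mutant library overlapped B6J. For *Csf1* the log2 fold change was 0.60 ± 0.09 (SE) in B6J.*Gtpbp1*-/- mice (edgeR adjusted p = 0.000814) and 0.62 ± 0.10 (SE) in B6J-*Gtpbp2*-/- mice (edgeR adjusted p = 0.00288), and the calls held in all 13 alternatives. *Il34*, which encodes the other ligand of that receptor, was at 6.24, 6.70 and 8.04 CPM in B6J, 9.79, 7.85 and 7.77 CPM in B6J.*Gtpbp1*-/- and 9.66, 8.61 and 10.4 CPM in B6J-*Gtpbp2*-/- libraries, with values of 0.27 and 0.44 on the log2 scale (edgeR adjusted p = 0.362 and 0.132). *Cx3cl1*, which encodes fractalkine, was at 58.9, 60.6 and 79.96 CPM in B6J, 84.6, 78.8 and 50.5 CPM in B6J.*Gtpbp1*-/- and 116, 69.8 and 95.6 CPM in B6J-*Gtpbp2*-/- libraries, with overlap in both comparisons (0.09 and 0.49, edgeR adjusted p = 0.849 and 0.193). *Csf1* was the 1 gene of the 5 in this list to be called in RNA in either mutant, the others being *Il34*, *Cx3cl1*, *Tgfb1* and *Cd47*. In footprints edgeR called 0 of 5 in both, and for *Csf1* the log2 fold change was 0.51 ± 0.20 (SE) (edgeR adjusted p = 0.306) and 0.34 ± 0.20 (SE) (edgeR adjusted p = 0.407).

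Downstream of the Trem2 receptor, *Tyrobp* encodes the adaptor DAP12, through which it signals. *Tyrobp* RNA was at 4.48, 2.84 and 3.07 CPM in B6J, 11.8, 6.89 and 9.07 CPM in B6J.*Gtpbp1*-/- and 8.81, 10.8 and 9.41 CPM in B6J-*Gtpbp2*-/- libraries. All mutant libraries were above all B6J libraries. For *Tyrobp* the log2 fold change was 1.41 ± 0.24 (SE) in B6J.*Gtpbp1*-/- mice (edgeR adjusted p = 0.00155) and 1.47 ± 0.21 (SE) in B6J-*Gtpbp2*-/- mice (edgeR adjusted p = 0.00171), and the calls held in all 13 alternatives. Of 4 genes of this pathway, 3 rose in both mutants and the kinase gene *Syk* was not called. They were *Tyrobp*, the phospholipase gene *Plcg2* (1.07 and 1.35, edgeR adjusted p = 0.0145 and 0.00771) and the lipid phosphatase gene *Inpp5d* (0.67 and 0.94, edgeR adjusted p = 0.0373 and 0.0118). *Plcg2* was lost in B6J.*Gtpbp1*-/- mice without B6J.*Gtpbp1*-/- replicate 1 (0.0635) or 2 (0.0570) or B6J replicate 2 (0.0579). *Inpp5d* was lost in B6J.*Gtpbp1*-/- mice without B6J.*Gtpbp1*-/- replicate 1 (0.141), 2 (0.0579) or 3 (0.101) or B6J replicate 1 (0.0971) or 2 (0.104) and turned to a log2 fold change of -0.039 with the length offset (0.953). In B6J-*Gtpbp2*-/- mice it was lost without B6J-*Gtpbp2*-/- replicate 3 (0.0592) or B6J replicate 1 (0.0529) or 2 (0.0567) and with the offset (0.319), all edgeR adjusted p. In footprints edgeR called 0 of 4 in both mutants, and *Tyrobp* had a log2 fold change of 1.71 ± 0.38 (SE) (edgeR adjusted p = 0.0638) and 1.24 ± 0.34 (SE) (edgeR adjusted p = 0.0685).

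Of 6 further genes of the early complement cascade, 2 rose in RNA in both mutants (medians 0.37 and 0.37). *C4b*, whose product is cleaved by activated C1, was at 10.6, 10.7 and 11.5 CPM in B6J, 45.3, 36.3 and 39.1 CPM in B6J.*Gtpbp1*-/- and 38.9, 35.2 and 35.1 CPM in B6J-*Gtpbp2*-/- libraries. All mutant libraries were above B6J. For *C4b* the log2 fold change was 1.87 ± 0.11 (SE) in B6J.*Gtpbp1*-/- mice (edgeR adjusted p = 3.06e-07) and 1.73 ± 0.11 (SE) in B6J-*Gtpbp2*-/- mice (edgeR adjusted p = 8.78e-06), and these calls held in all 13 alternatives. *C3*, the central component, rose with a log2 fold change of 1.92 ± 0.43 (SE) (edgeR adjusted p = 0.0100) and 1.59 ± 0.44 (SE) (edgeR adjusted p = 0.0456). The *C3* call was lost in B6J.*Gtpbp1*-/- mice without B6J.*Gtpbp1*-/- replicate 3 (edgeR adjusted p = 0.0629) and in B6J-*Gtpbp2*-/- mice without B6J-*Gtpbp2*-/- replicate 1 (0.0677), 2 (0.0710) or 3 (0.212) or B6J replicate 1 (0.105) or 2 (0.121), and with the length offset in both (0.426 and 0.686). *C4b* was also the 1 gene of 5 tested to rise in footprints, with 1.69 ± 0.32 (SE) (edgeR adjusted p = 0.0305) and 1.45 ± 0.32 (SE) (edgeR adjusted p = 0.0271). This was lost in B6J.*Gtpbp1*-/- mice without B6J.*Gtpbp1*-/- replicate 1 (0.0528) or B6J replicate 1 (0.0985), 2 (0.108) or 3 (0.0650) and in B6J-*Gtpbp2*-/- mice without B6J-*Gtpbp2*-/- replicate 2 (0.0522) or 3 (0.117) or B6J replicate 2 (0.127).

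Genes of other macrophages and of blood cells, which a cerebellum can also hold, were examined because they share several of the microglia genes. Of 8 genes of border-associated macrophages, 2 rose in RNA in B6J.*Gtpbp1*-/- mice and 1 did so in B6J-*Gtpbp2*-/- mice (medians 0.59 and 0.52). Their summed level was 28.8, 31.1 and 28.4 CPM in B6J, 44.2, 45.5 and 39.3 CPM in B6J.*Gtpbp1*-/- and 41.02, 44.3 and 46.1 CPM in B6J-*Gtpbp2*-/- libraries, higher in all mutant libraries than in B6J, and *Stab1* was the most abundant. The mannose receptor gene *Mrc1* rose in B6J.*Gtpbp1*-/- mice (log2 fold change 0.78 ± 0.16 (SE), edgeR adjusted p = 0.00642), and *Stab1* was called in both (edgeR adjusted p = 0.0306 and 0.0182), which was lost without any 1 of the 6 libraries in B6J.*Gtpbp1*-/- mice (0.0567 to 0.120) and without B6J-*Gtpbp2*-/- replicate 2 (0.0572) or 3 (0.0964) or B6J replicate 1 (0.0639) or 2 (0.0660) in B6J-*Gtpbp2*-/- mice. Of 10 genes of blood leukocytes, 2 rose in both mutants, with a summed level of 10.5, 8.94 and 10.7 CPM in B6J, 20.9, 22.5 and 22.9 CPM in B6J.*Gtpbp1*-/- and 14.8, 19.6 and 24.4 CPM in B6J-*Gtpbp2*-/- libraries. One was *Lyz2*, a lysozyme gene that microglia also express and the most abundant of the list, with a log2 fold change of 1.24 ± 0.13 (SE) in B6J.*Gtpbp1*-/- mice (edgeR adjusted p = 4.47e-05) and 1.03 ± 0.19 (SE) in B6J-*Gtpbp2*-/- mice (edgeR adjusted p = 0.00824), the second call being lost without B6J replicate 2 (0.0528). The other, the neutrophil gene *Ly6g*, was at 0 in all 3 B6J RNA libraries and at most 0.394 CPM in a mutant library (edgeR adjusted p = 0.0397 and 0.0451). *Ly6g* passed the filter on low counts through mutant libraries alone, so it could only be called higher. It was lost in B6J.*Gtpbp1*-/- mice without B6J replicate 1 (0.0559) or 2 (0.0676) and in B6J-*Gtpbp2*-/- mice without B6J replicate 1 (0.0806), 2 (0.0922) or 3 (0.0525). In footprints edgeR called 0 of 8 border macrophage genes in both mutants, with a sum of 65.4, 106 and 57.6 CPM in B6J, 163, 96.8 and 168 CPM in B6J.*Gtpbp1*-/- and 107, 123 and 107 CPM in B6J-*Gtpbp2*-/- libraries, and 0 of 5 and 0 of 3 leukocyte genes, with a sum of 10.8, 10.1 and 23.4 CPM in B6J, 53.8, 41.03 and 43.1 CPM in B6J.*Gtpbp1*-/- and 19.5, 22.9 and 34.5 CPM in B6J-*Gtpbp2*-/- libraries. The T cell gene *Cd3e* had at most 2 footprint counts in any library. The part of border macrophages and blood leukocytes in the microglia gene results was not tested.

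Of 5 red cell genes, 1 rose in RNA in B6J.*Gtpbp1*-/- mice (*Alas2*, log2 fold change 0.92 ± 0.20 (SE), edgeR adjusted p = 0.0138, lost without B6J.*Gtpbp1*-/- replicate 1 (0.0505) or B6J replicate 3 (0.0659)) and edgeR called 0 in B6J-*Gtpbp2*-/- mice. Their sum was 1396, 773 and 1101 CPM in B6J, 1652, 1444 and 1816 CPM in B6J.*Gtpbp1*-/- and 328, 1538 and 815 CPM in B6J-*Gtpbp2*-/- libraries, led by *Hbb-bs*, with B6J-*Gtpbp2*-/- replicate 1 the lowest. Bone and muscle genes, as a sign of other tissue in the dissection, gave 0 calls of 6 and 7 tested in RNA, and their sum was 108, 114 and 81.6 CPM in B6J, 104, 139.6 and 109 CPM in B6J.*Gtpbp1*-/- and 81.3, 130.2 and 106 CPM in B6J-*Gtpbp2*-/- libraries, led by *Col1a2*. In footprints the bone and muscle sum was 276, 671 and 902 CPM in B6J, 1579, 1382 and 2702 CPM in B6J.*Gtpbp1*-/- and 606, 968 and 473 CPM in B6J-*Gtpbp2*-/- libraries, so every B6J.*Gtpbp1*-/- library was above every B6J library (median log2 fold change 1.41 over 8 genes tested) while B6J-*Gtpbp2*-/- libraries overlapped B6J (0.09 over 5). These medians are over different genes, and the filter let some into the first through counts in B6J.*Gtpbp1*-/- libraries. The red cell footprint sum was 619.8, 454 and 1005 CPM in B6J, 2219, 729.6 and 1349 CPM in B6J.*Gtpbp1*-/- and 955, 3161 and 757 CPM in B6J-*Gtpbp2*-/- libraries, with overlap. No gene of either list was called by edgeR in footprints (0 in both mutants), and the part of blood or adjacent tissue in the microglia gene results was not tested.

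Of 5 granule neuron genes, 4 fell in RNA in both mutants (medians -0.71 and -0.65), among them *Gabra6*, a GABA receptor subunit of these cells, at 849.6, 849 and 976 CPM in B6J, 379.9, 413 and 475 CPM in B6J.*Gtpbp1*-/- and 431, 445 and 448 CPM in B6J-*Gtpbp2*-/- libraries. For *Gabra6* the groups did not overlap, and the log2 fold change was -1.08 ± 0.10 (SE) in B6J.*Gtpbp1*-/- mice (edgeR adjusted p = 1.60e-05) and -1.02 ± 0.09 (SE) in B6J-*Gtpbp2*-/- mice (edgeR adjusted p = 8.15e-05). The summed granule neuron level was 4770.0, 4968 and 4634 CPM in B6J, 3029, 2898 and 3451 CPM in B6J.*Gtpbp1*-/- and 3087, 3351 and 2968 CPM in B6J-*Gtpbp2*-/- libraries, led by *Cbln3*. In footprints edgeR called 0 of 5 in B6J.*Gtpbp1*-/- mice and 5 of 5 lower in B6J-*Gtpbp2*-/- mice, with a sum of 3734, 5394 and 4212 CPM in B6J, 3086, 2229 and 3267 CPM in B6J.*Gtpbp1*-/- and 2278, 2129 and 1804 CPM in B6J-*Gtpbp2*-/- libraries. CPM here is relative to a library total scaled by TMM. Less granule neuron RNA can raise the CPM of other RNA as far as that scaling does not offset it. The part of this in the microglia gene results was not tested.

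Of 5 astrocyte genes, 1 rose and 2 fell in RNA in both mutants, with a sum of 3266, 3489.6 and 2940.0 CPM in B6J, 3108, 2649 and 3127 CPM in B6J.*Gtpbp1*-/- and 2747, 3095 and 2734 CPM in B6J-*Gtpbp2*-/- libraries, led by *Slc1a3*. The 1 that rose was *Gfap*, the intermediate filament gene of reactive astrocytes, at 175, 156 and 173 CPM in B6J, 530.5, 366 and 397 CPM in B6J.*Gtpbp1*-/- and 332, 451 and 401 CPM in B6J-*Gtpbp2*-/- libraries. Its groups did not overlap. For *Gfap* the log2 fold change was 1.35 ± 0.13 (SE) in B6J.*Gtpbp1*-/- mice (edgeR adjusted p = 3.04e-05) and 1.22 ± 0.11 (SE) in B6J-*Gtpbp2*-/- mice (edgeR adjusted p = 0.000104). *Slc1a3* (-0.45 and -0.44, edgeR adjusted p = 0.00911 and 0.0219) was lost in B6J.*Gtpbp1*-/- mice without B6J.*Gtpbp1*-/- replicate 2 (0.0683) or B6J replicate 2 (0.0502) and in B6J-*Gtpbp2*-/- mice without B6J-*Gtpbp2*-/- replicate 2 (0.0533) or 3 (0.0821) or B6J replicate 1 (0.0876) or 2 (0.0865), and *Aldh1l1* (-0.33 and -0.30, edgeR adjusted p = 0.0388 and 0.0322) with upper quartile normalization (0.0735 and 0.0601). Of 4 Purkinje cell genes, 1 fell in B6J.*Gtpbp1*-/- mice and 2 did so in B6J-*Gtpbp2*-/- mice, with a sum of 7450.3, 8526 and 6229 CPM in B6J, 6107, 5485 and 7155 CPM in B6J.*Gtpbp1*-/- and 5476, 6314 and 5195 CPM in B6J-*Gtpbp2*-/- libraries, led by *Itpr1*. These were *Car8* (-0.38 and -0.43, edgeR adjusted p = 0.0427 and 0.0125) and, in B6J-*Gtpbp2*-/- mice, *Calb1* (-0.37, edgeR adjusted p = 0.0422), and all 3 calls were lost without B6J replicate 1 (0.116, 0.0603 and 0.117) or 2 (0.133, 0.0511 and 0.132). Of 5 oligodendrocyte genes, 5 fell in B6J.*Gtpbp1*-/- mice (median -0.49) and edgeR called 0 in B6J-*Gtpbp2*-/- mice (median -0.03), with a sum of 10943, 9620.0 and 11194 CPM in B6J, 8146, 8173 and 7012 CPM in B6J.*Gtpbp1*-/- and 11845, 8852 and 9428 CPM in B6J-*Gtpbp2*-/- libraries, led by *Mbp*. None of these 3 lists had a gene called by edgeR in footprints. In the order B6J, B6J.*Gtpbp1*-/- and B6J-*Gtpbp2*-/-, mean footprint sums were 3407, 3975 and 3689 CPM for astrocyte genes. They were 8798, 9783 and 12578 CPM for Purkinje cell genes and 10505, 11459 and 12305 CPM for oligodendrocyte genes. These means were higher in the mutants than in B6J, with overlap of libraries, while the mean RNA sums were lower. Of 5 endothelial genes, 3 rose in RNA in B6J.*Gtpbp1*-/- mice and 2 did so in B6J-*Gtpbp2*-/- mice, with a sum of 143, 139 and 140.3 CPM in B6J, 183, 194 and 204 CPM in B6J.*Gtpbp1*-/- and 158, 229.6 and 252 CPM in B6J-*Gtpbp2*-/- libraries, led by *Flt1*. Every mutant library was above B6J, also in footprints, where the sum was 328, 217 and 372 CPM in B6J, 786, 572 and 445 CPM in B6J.*Gtpbp1*-/- and 672, 571 and 534 CPM in B6J-*Gtpbp2*-/- libraries. For *Cldn5*, a tight junction gene of brain vessels, the log2 fold change in RNA was 0.59 ± 0.11 (SE) in B6J.*Gtpbp1*-/- mice (edgeR adjusted p = 0.00290) and 0.74 ± 0.12 (SE) in B6J-*Gtpbp2*-/- mice (edgeR adjusted p = 0.00275). In footprints, where 1 and 2 of the 5 genes rose, that of *Cldn5* was 1.42 ± 0.25 (SE) in B6J.*Gtpbp1*-/- mice (edgeR adjusted p = 0.0209) and 1.41 ± 0.22 (SE) in B6J-*Gtpbp2*-/- mice (edgeR adjusted p = 0.00395), lost in B6J.*Gtpbp1*-/- mice without B6J.*Gtpbp1*-/- replicate 1 (0.0830) or B6J replicate 1 (0.156) or 2 (0.0891). No gene of any of these lists was at 0 in all libraries, and the part of these cells in the microglia gene results was not tested.

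Across the 9 RNA libraries, most of the 10 genes varied together. Pearson's r between the log2 CPM of a gene and the mean of the other 9 (each standardized) was 0.986 for *Cx3cr1*, 0.977 for *C1qc*, 0.972 for *Csf1r*, 0.970 for *Cd68*, 0.967 for *C1qa*, 0.965 for *C1qb* and 0.960 for *Trem2*. It was lower for *Aif1* (0.838), *P2ry12* (0.687) and *Tmem119* (0.505). The points share the 3 genotypes, so these values describe the libraries and are not independent of the changes above. Of 16180 genes outside all lists with a mean of at least 1 CPM, those with the highest r with the mean of the 10 genes were *Eef1a1* (0.991), *Mpeg1* (0.989), *Btf3l4* (0.986), *Pld4* (0.983) and the noncoding gene *Gm26735* (0.982). These genes were chosen by r in the same RNA libraries, so their RNA changes below are not independent of that choice. *Mpeg1*, which encodes perforin-2 of macrophages, was at 11.6, 10.4 and 9.79 CPM in B6J, 45.6, 34.1 and 31.9 CPM in B6J.*Gtpbp1*-/- and 30.01, 28.7 and 34.5 CPM in B6J-*Gtpbp2*-/- libraries in RNA. The groups did not overlap. For *Mpeg1* the log2 fold change was 1.80 ± 0.14 (SE) in B6J.*Gtpbp1*-/- mice (edgeR adjusted p = 2.94e-06) and 1.54 ± 0.12 (SE) in B6J-*Gtpbp2*-/- mice (edgeR adjusted p = 3.92e-05). In footprints *Mpeg1* had a log2 fold change of 1.82 ± 0.27 (SE) (edgeR adjusted p = 0.00823, lost without B6J replicate 1, 0.0619) and 1.52 ± 0.25 (SE) (edgeR adjusted p = 0.00395). *Pld4* had 1.20 ± 0.20 (SE) (edgeR adjusted p = 0.00126) and 1.10 ± 0.19 (SE) (edgeR adjusted p = 0.00533) in RNA, and *Eef1a1*, the translation elongation factor gene with the highest r, was not called (0.25 and 0.23, edgeR adjusted p = 0.0557 and 0.0942).

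On the genome (GRCm38), *Cx3cr1* (ENSMUSG00000052336.7) at chr9:119901616-120069879 on the minus strand, *P2ry12* (ENSMUSG00000036353.13) at chr3:59216272-59262871 on the minus strand and *Tmem119* (ENSMUSG00000054675.5) at chr5:113793729-113800516 on the minus strand are on separate chromosomes, as is *Csf1r* (ENSMUSG00000024621.15) at chr18:61100598-61132149 on the plus strand. *Trem2* (ENSMUSG00000023992.14) at chr17:48346401-48354147 on the plus strand and *Aif1* (ENSMUSG00000024397.14) at chr17:35170991-35176068 on the minus strand are on the same chromosome, and *Cd68* (ENSMUSG00000018774.13) at chr11:69664213-69666153 on the minus strand on another. All 10 genes are annotated as protein-coding, and 0 of the 10 have a coding sequence that overlaps that of another gene, so their footprints were counted on sequence of their own.

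All 3 genotypes carried the mutation of the AGA-reading tRNA gene, and the 10 genes differed in how many AGA codons they hold. In the annotated coding sequences of 21526 genes, the median number of AGA codons was 4, the median length 396 codons and the median rate 11.2 AGA codons per 1000. *C1qb* and *C1qc* hold 0 AGA codons of 253 and 246, and *C1qa* holds 1 of 245. *Cx3cr1* holds 5 of 354, *Csf1r* 5 of 977, *P2ry12* 4 of 347, *Tmem119* 4 of 280, *Trem2* 4 of 249 and *Cd68* 3 of 335. *Aif1* holds 5 of 147, or 34.0 per 1000, at the 96.3rd percentile. Counts per gene carry no position within the gene, so pausing at these codons was not analysed here.

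The C1q genes lie side by side, with *C1qa* (ENSMUSG00000036887.5) at chr4:136895917-136898803 on the minus strand, *C1qc* (ENSMUSG00000036896.5) at chr4:136889804-136893065 on the minus strand and *C1qb* (ENSMUSG00000036905.8) at chr4:136880129-136886187 on the minus strand spanning 18675 bases (GRCm38). Since they moved together, their promoters were examined. Promoters of RefSeq (GRCm38.p6), from 250 bases before to 50 after the start, were matched for 7 of the 10 genes (*Cx3cr1*, *P2ry12*, *Trem2*, *Cd68*, *Aif1*, *C1qb* and *C1qc*). They were searched on both strands for GAGGAA, the core of the box bound by PU.1, a transcription factor of macrophages. The motif was chosen after the data were seen. It was found in 5 of the 7 and in 28.3% of the 32851 promoters of the same length. *Cd68* holds 2 copies, *C1qb*, *C1qc*, *Aif1* and *Trem2* hold 1, and *Cx3cr1* and *P2ry12* hold 0. A match describes the letters alone, and binding was not measured. Shown 5′ to 3′, with the motif of either strand in capitals, are the promoters of *C1qb* (chr4:136886151-136886450 on the minus strand) and *C1qc* (chr4:136892865-136893164 on the minus strand), neighbors that rose in RNA in both mutants, and of *P2ry12* (chr3:59262936-59263235 on the minus strand), which was not called in RNA in either. *Cx3cr1*, with 0 copies as well, rose in both, so genes without the motif did not share 1 outcome.
C1qb: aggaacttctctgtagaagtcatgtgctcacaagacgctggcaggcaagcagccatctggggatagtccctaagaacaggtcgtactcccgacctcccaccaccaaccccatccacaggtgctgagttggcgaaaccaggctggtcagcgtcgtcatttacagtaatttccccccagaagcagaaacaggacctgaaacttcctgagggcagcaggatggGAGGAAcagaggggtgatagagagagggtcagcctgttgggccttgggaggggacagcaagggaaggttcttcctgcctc
C1qc: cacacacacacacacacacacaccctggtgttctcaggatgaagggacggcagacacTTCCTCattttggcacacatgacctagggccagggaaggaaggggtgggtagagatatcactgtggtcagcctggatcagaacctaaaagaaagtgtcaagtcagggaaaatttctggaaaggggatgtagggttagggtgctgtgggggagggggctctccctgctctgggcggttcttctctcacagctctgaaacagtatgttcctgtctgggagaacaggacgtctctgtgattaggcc
P2ry12: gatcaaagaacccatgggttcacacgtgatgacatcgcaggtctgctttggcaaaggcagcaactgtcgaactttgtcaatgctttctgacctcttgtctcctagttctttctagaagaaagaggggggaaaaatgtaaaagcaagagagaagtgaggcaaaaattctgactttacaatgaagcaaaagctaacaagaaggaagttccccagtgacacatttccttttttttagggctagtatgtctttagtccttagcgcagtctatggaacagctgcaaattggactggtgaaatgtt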

How the data were processed

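For RNA, the authors used kallisto 0.42.4 to pseudo-align read pairs to transcripts of Gencode M20 and deposited, per transcript, estimated counts that are not normalized, and TPM, which scales for effective length and library total. For ribosome profiling, the authors removed ribosomal RNA reads with Bowtie2 2.2.3, aligned the rest to the mouse genome with HISAT2 2.1.0 and deposited raw counts per gene, made by featureCounts from footprints within coding sequence.

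Estimated counts were summed per gene and rounded. Genes that reached 5 counts in 3 or more of the 6 libraries compared were tested by edgeR 4.0.16, quasi-likelihood test (R 4.3.3, limma 3.58.1) with TMM, robust estimation and Benjamini-Hochberg adjustment over all genes tested. Translational efficiency was tested as the interaction of assay and genotype over 12 libraries, for genes that reached 10 counts in 3 or more of 6 libraries in RNA and likewise in footprints, without genes with the prefix Hist. Class means used log2 CPM with a prior count of 2. Positions, coding lengths and codons came from Gencode M21 on GRCm38. Tables were made with Python 3.11.15, pandas 2.3.3, numpy 2.4.6 and scipy 1.17.1, and the tests were tested on simulated data.

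Alternatives were DESeq2 1.42.0, upper quartile normalization, no filter on low counts, all 9 libraries of an assay in 1 model, a replicate block, an offset for transcript length, protein-coding transcripts alone, and fits without 1 library at a time. For efficiency they were DESeq2, TMM set separately for the assays, a minimum mean count of 1, a block pairing assays within genotype, and leaving out each library.

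Named genes were the 10 members, *Gtpbp1* and *Gtpbp2*, *Csf1*, *Il34*, *Cx3cl1* and *Tyrobp*, from each of 15 other lists the most abundant gene and up to 3 called genes per comparison, and the 5 genes with the highest Pearson's r with the members. *Ddx3y*, *Syk* and *Tgfb1* were named after their values were seen. One gene named by this rule, and the RNA medians of its list, are not reported here. The members and lists were chosen with earlier results of these data known.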

Additional observations from a re-analysis of the deposited data

Results flagged for a closer look

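*Gtpbp2* RNA differed between the mutants. Its log2 fold change of B6J.*Gtpbp1*-/- over B6J-*Gtpbp2*-/- mice was 0.55 (edgeR adjusted p = 0.0360), and it was listed here because the test of the difference between the mutants passed. The call was lost with the offset for transcript length (log2 fold change 0.11, edgeR adjusted p = 0.999), with the replicate block (edgeR adjusted p = 0.0570) and in each of the 6 fits without 1 library (edgeR adjusted p from 0.0548 to 0.279), and was kept on protein-coding transcripts alone (log2 fold change 1.00, edgeR adjusted p = 0.0165). None of the 10 microglia genes passed that test in RNA or footprints.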

How the results depend on the processing

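For the 10 microglia genes, 991 of 1040 fold changes under the alternatives stayed on their side of the threshold, 23 gained a call and 26 lost one. The 991 include 49 that changed sign between values that passed in neither fit, and the others kept their direction. For the other named genes 5060 of 5367 stayed on their side, 110 gained a call, 196 lost one and 1 reversed, *Inpp5d* in RNA of B6J.*Gtpbp1*-/- mice, which was at -0.039 with the offset for transcript length (edgeR adjusted p = 0.953). The 5060 include 282 such changes of sign.

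In RNA, the number of genes called in B6J.*Gtpbp1*-/- mice was 2237 with the replicate block and 2231 with the offset for transcript length, where the median of the 10 genes was 1.08. In B6J-*Gtpbp2*-/- mice it was 3409 with DESeq2 and 1360 with the offset, and the median of the 10 was 1.23 on protein-coding transcripts alone. Between the mutants it was 46 with DESeq2, 36 with no filter and 5 on protein-coding transcripts alone. In footprints of B6J.*Gtpbp1*-/- mice it was 406 with DESeq2, 213 with no filter, 213 with all 9 libraries in 1 model and 44 with the replicate block, and the number of microglia genes called was 7, 6, 5 and 1 in these fits and 5 with upper quartile normalization. In footprints of B6J-*Gtpbp2*-/- mice it was 655 with DESeq2 and 261 with all 9 libraries, and between the mutants 100 with DESeq2, 3 with upper quartile normalization, 15 with no filter, 1 with all 9 libraries and 1 with the replicate block. For translational efficiency it was 58 with DESeq2 in B6J.*Gtpbp1*-/- mice, while B6J-*Gtpbp2*-/- mice gave 160 with DESeq2, 2 with a mean count of at least 1 and 0 with the replicate block. The cause of these differences was not tested.

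Replicate numbers did not pair the libraries: correlations of deviations between libraries of the same number had both signs, from -0.307 to 0.200, and *Ddx3y* differed between assays at the same number. With the replicate block, *Aif1* was no longer called in RNA of B6J.*Gtpbp1*-/- mice (edgeR adjusted p = 0.0781), nor were *C1qa* and *C1qc* in their footprints.

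Leaving out 1 library at a time gave these ranges over all genes called, the microglia genes called and the median log2 fold change of the 10. In RNA they were 1890 to 3798, 7 to 9 and 1.14 to 1.34 in B6J.*Gtpbp1*-/- mice, 953 to 2357, 7 to 9 and 1.05 to 1.22 in B6J-*Gtpbp2*-/- mice, and 9 to 17, 0 to 0 and -0.02 to 0.14 between the mutants. In footprints they were 22 to 186, 0 to 6 and 1.16 to 1.58 for B6J.*Gtpbp1*-/-, 106 to 619, 2 to 2 and 0.56 to 1.12 for B6J-*Gtpbp2*-/- and 0 to 33, 0 to 0 and 0.27 to 0.67 between the mutants. For translational efficiency they were 0 to 174, 0 to 0 and 0.00051 to 0.42 for B6J.*Gtpbp1*-/-, and 0 to 158, 0 to 0 and -0.36 to 0.04 for B6J-*Gtpbp2*-/-. Footprints of *Aif1* had as few as 9 counts in a library.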
